A study of Homo sapiens with 3 samples.

Results

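The genes described here are 40 that act in mitosis, namely the mitotic cyclins and CDK1, the mitotic kinases, the spindle checkpoint, the centromere and kinetochore, the anaphase machinery and the proteins of the spindle and of cytokinesis. They were taken by symbol from the 20332 genes of the table, and all 40 were found, each in 1 row. The RNA came from HCC827, a line established from a human adenocarcinoma of the lung, whose growth is driven by mutant EGFR, and was measured by RNA sequencing. There were 3 groups of 1 library each. The first was treated with DMSO, the vehicle, the second with compound 1 at 5 μM for 24 h and the third with compound 2 at 5 μM for 24 h, and no time was given for DMSO. The series title calls the compounds daphnane diterpenoids, natural products made by plants, and relates them to suppression of ATR, the kinase that responds to DNA damage and stalled replication. With 1 library a group there is no replicate error, so every difference is between 2 libraries and carries no test.

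Mitosis is driven by CDK1 bound to cyclin B, which phosphorylates the proteins that condense chromosomes and build the spindle. The kinetochore, a protein assembly on the centromere, binds spindle microtubules, and the spindle checkpoint holds back the anaphase-promoting complex (APC/C) until every kinetochore is attached. APC/C with CDC20 then marks securin and cyclin B for destruction, which releases separase and ends mitosis. Most of these genes are transcribed mainly in G2 and mitosis. In quiescent or arrested cells the DREAM complex represses many of them through the cell cycle genes homology region (CHR) of their promoters, and in cycling cells MYBL2 and FOXM1 activate them. They are widely used as a readout of proliferation in tumours.

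Promoter windows from RefSeq (GRCh38.p14, 250 bases before to 50 after the gene start) were available for 32 of the 40 genes and were searched on both strands for TTTGAA, the core of the CHR, for CCAAT, the box bound by NF-Y, and for the E2F core TTNNCGC with G or C at each N. TTTGAA was in the window of 21 of 32 genes (65.6%), against 18.2% of the 27305 genes with a window and 13.6% of the 9445 measured in these libraries. CCAAT was in 26 (81.2%), against 39.7% and 43.6%, and both were in 17 (53.1%), against 8.37% and 7.43%. The E2F core was in 9 (28.1%), against 15.3% and 25.6%. Within 50 bases of the start, a span chosen after the positions were seen, TTTGAA was in 18 of 32 genes (56.2%) and in 4.24% of measured genes. A match describes the letters in the window and is not evidence of binding.

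The 250 bases before the start are given for the pair of genes with the lowest mean log2 ratio against DMSO among the 32, PLK1 and AURKB, and for the gene with the highest, CENPC. Capitals mark matches on either strand. The PLK1 window (chr16:23678639-23678888, plus strand) holds CCAAT and, with its first base 29 bases before the start, TTTGAA. The AURKB window (chr17:8210226-8210475, minus strand) holds CCAAT as its reverse complement and no TTTGAA. The CENPC window (chr4:67545504-67545753, minus strand) holds CCAAT on both strands and TTTGAA on the reverse strand, 90 bases before the start. Median log2 ratios after compounds 1 and 2 were -1.97 and -1.41 for the 21 genes with TTTGAA. For the 11 without it they were -1.67 and -1.04. With CCAAT they were -2.055 and -1.472 (26 genes), and without it -1.486 and -1.1 (6 genes). With the E2F core they were -2.14 and -1.38 (9 genes), and without it -1.92 and -1.41 (23 genes). The part of these motifs in the ratios was not tested.
PLK1: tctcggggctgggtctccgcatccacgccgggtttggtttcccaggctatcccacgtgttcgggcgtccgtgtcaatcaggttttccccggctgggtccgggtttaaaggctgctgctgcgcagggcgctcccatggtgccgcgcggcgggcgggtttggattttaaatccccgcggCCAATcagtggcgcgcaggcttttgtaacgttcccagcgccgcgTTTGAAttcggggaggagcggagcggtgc
AURKB: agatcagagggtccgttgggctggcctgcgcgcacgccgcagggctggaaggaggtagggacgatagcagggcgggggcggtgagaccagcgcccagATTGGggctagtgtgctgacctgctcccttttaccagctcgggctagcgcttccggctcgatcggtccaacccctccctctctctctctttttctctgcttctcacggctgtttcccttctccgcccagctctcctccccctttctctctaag
CENPC: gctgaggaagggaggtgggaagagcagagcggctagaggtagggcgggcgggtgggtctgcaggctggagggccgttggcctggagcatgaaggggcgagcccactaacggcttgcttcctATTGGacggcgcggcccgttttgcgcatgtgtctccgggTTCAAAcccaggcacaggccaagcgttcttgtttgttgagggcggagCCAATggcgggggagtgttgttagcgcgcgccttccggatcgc

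After both compounds nearly all of the 40 mRNAs were lower than in the DMSO library, and more so after compound 1. Levels are in TPM, a share of the library's signal corrected for transcript length, so they can be compared between genes. Ratios are log2 ratios of TPM + 1, computed for 11600 genes whose mean over the libraries reached 1 TPM, and a gene is counted as lower or higher past 2-fold. The 40 genes together held 4227 TPM in the DMSO library, 1101 TPM after compound 1 and 1528 TPM after compound 2, which is 26.1% and 36.2% of the DMSO sum. After compound 1, 37 of 40 were past 2-fold lower and 0 past 2-fold higher, with a median log2 ratio of -1.94. Of all 11600 genes 8.09% were at least 2-fold lower and 14.7% higher, with a median of 0.11. After compound 2, 30 of 40 were past 2-fold lower and 0 past 2-fold higher, with a median of -1.39, against 6.56% and 12.6% of all genes and a median of 0.09. Both comparisons use the same DMSO library. In RNA from a whole culture, fewer cells in G2 and mitosis and less of these mRNAs per cell cannot be told apart.

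**Figure D1:**
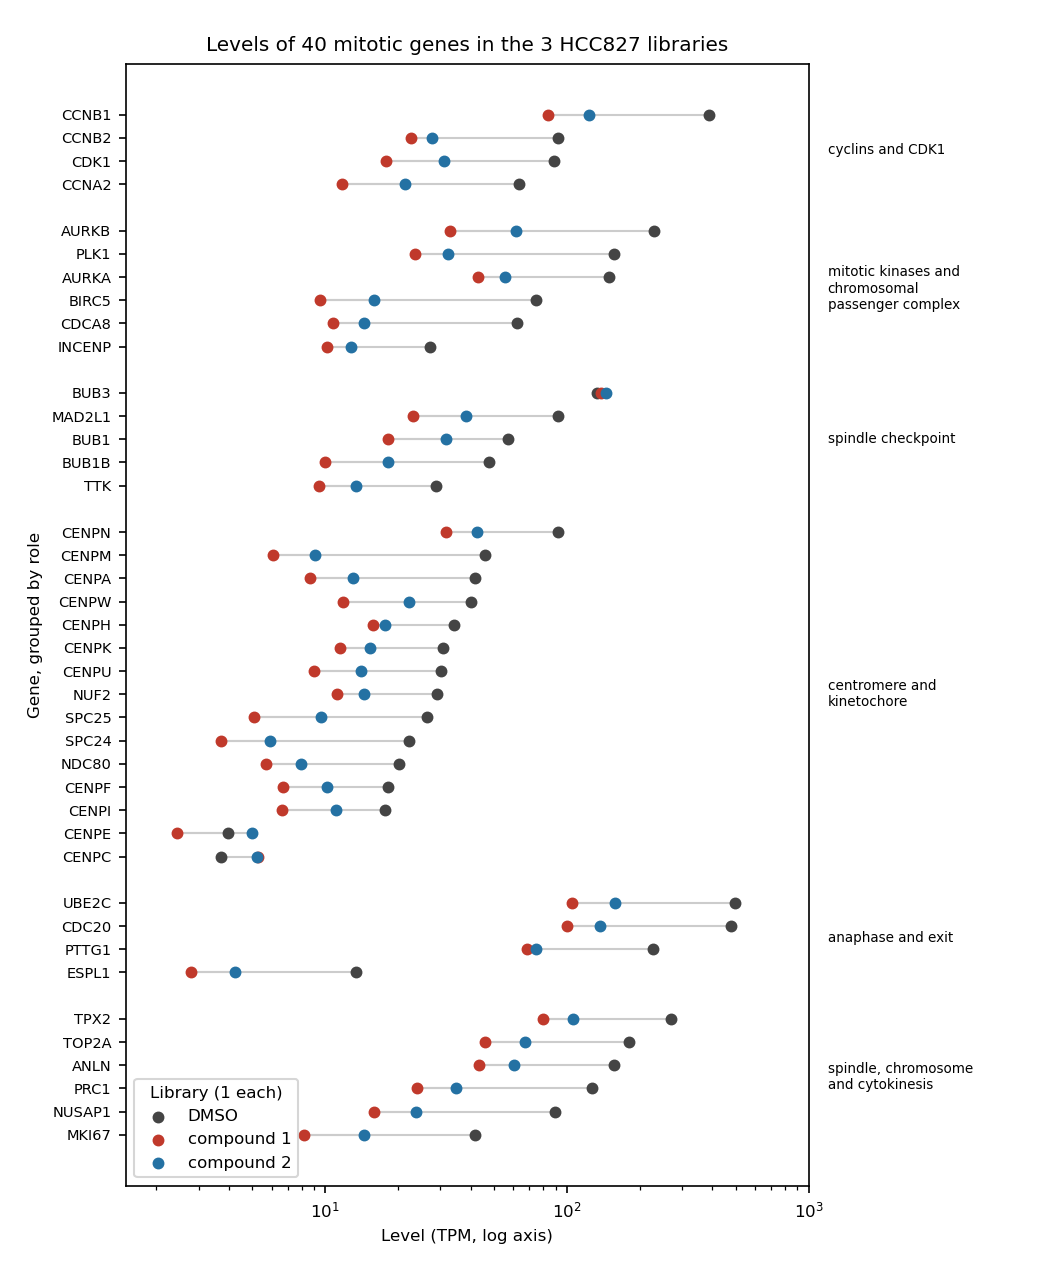
Level of each of the 40 genes in TPM (log axis) in the DMSO, compound 1 and compound 2 libraries, 1 point a library, grouped by role. The compound 1 points lie furthest left and the DMSO points furthest right for all genes except BUB3, CENPC and CENPE.

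The libraries were those of an epithelial line. Epithelial and lung markers were present in every library but moved with the treatments. EPCAM (0.35 and 0.19), CDH1 (0.58 and 0.34) and EGFR (1.21 and 1.31) had log2 ratios above 0 after compounds 1 and 2, and KRT8 (-1.75 and -2.05), KRT18 (-1.18 and -1.35), KRT19 (-0.78 and -1.03), NAPSA (-1.63 and -1.73) and NKX2-1 (-1.10 and -1.65) below 0. Their part in the mitotic differences was not tested. COL1A1 was at most 1.90 TPM and none of the other fibroblast, leukocyte and endothelial markers reached 1 TPM. Between 11481 and 11518 genes reached 1 TPM in a library. Read depth is unknown, because the values keep no counts.

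Cyclins and CDK1. All 4 genes were at least 2-fold lower after both compounds, with medians of -2.21 and -1.58. CDK1, the kinase that starts mitosis, was at 88.1 TPM in the DMSO library, 17.9 TPM after compound 1 and 31.1 TPM after compound 2 (log2 ratios -2.23 and -1.48). CCNB1, its main cyclin partner, was the most abundant of the 4, at 387, 83.9 and 124 TPM (-2.19 and -1.64). The order was DMSO, compound 2, compound 1 from high to low, and it was the same for the other cyclins. CCNB2, the second B-type cyclin, was at 91.9, 22.8 and 27.8 TPM (-1.97 and -1.69). CCNA2, the A-type cyclin of S phase and G2, was at 63.6, 11.7 and 21.5 TPM (-2.34 and -1.52). The balance between partners moved little by comparison, with CCNB1 at 4.39, 4.68 and 3.98 times the CDK1 level in the DMSO, compound 1 and compound 2 libraries.

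Mitotic kinases and the chromosomal passenger complex. Here all 6 genes were at least 2-fold lower after both compounds (medians -2.55 and -1.95). PLK1, the polo-like kinase of mitotic entry, spindle poles and cytokinesis (ENSG00000166851), was at 156 TPM in the DMSO library, 23.6 TPM after compound 1 and 32.2 TPM after compound 2 (-2.68 and -2.25). AURKA, the aurora kinase of centrosomes and spindle poles, was at 149, 43.0 and 55.2 TPM (-1.77 and -1.42). Of the 31-base stretches of the AURKA transcript, 20.3% also occur in other genes and 17.0% in RAB3GAP2 alone, whose own level was 9.10, 23.7 and 22.3 TPM. The part of such shared reads in the AURKA value was not tested.

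The other members form the passenger complex, which corrects wrong kinetochore attachments and then guides cytokinesis. AURKB, its kinase, was at 229, 32.8 and 61.9 TPM in the DMSO, compound 1 and compound 2 libraries (-2.77 and -1.87). BIRC5, which encodes survivin, a subunit that also inhibits apoptosis, was at 74.6, 9.49 and 16.0 TPM (-2.85 and -2.15). After compound 1 this was the lowest ratio of all 40 genes on the deposited scale. Once the trend of all genes in transcript length and GC content was subtracted, BIRC5 was at -2.60 after compound 1. MKI67 (-2.80), PLK1 (-2.73), MAD2L1 (-2.63) and TOP2A (-2.63) were then lower. CDCA8, which encodes borealin, was at 62.2, 10.8 and 14.5 TPM (-2.42 and -2.03). INCENP, the scaffold that holds the kinase, stood apart with the smallest difference in the complex, at 27.2, 10.2 and 12.7 TPM (-1.33 and -1.04). The AURKB level was accordingly 8.41 times that of INCENP in the DMSO library, 3.22 times after compound 1 and 4.86 times after compound 2.

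Spindle checkpoint. The kinase and MAD genes were lower, while BUB3 was not. BUB1B, which encodes BUBR1, the subunit of the mitotic checkpoint complex that blocks APC/C, was at 47.7, 10.0 and 18.2 TPM in the DMSO, compound 1 and compound 2 libraries (-2.14 and -1.34). MAD2L1, which encodes the MAD2 protein that captures CDC20, was at 91.9, 23.1 and 38.3 TPM (-1.95 and -1.24). BUB1, the kinase that recruits checkpoint proteins to kinetochores, was at 57.1, 18.1 and 31.6 TPM (-1.60 and -0.83), past 2-fold after compound 1 but not after compound 2. These genes again had their lowest value after compound 1.

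TTK, which encodes the MPS1 kinase at the head of the checkpoint, was at 28.8, 9.42 and 13.4 TPM (-1.52 and -1.05). BUB3, the WD-repeat protein that carries BUB1 and BUBR1 to kinetochores (ENSG00000154473, chromosome 10, 123154277 to 123170467 in GRCh38), was at 133, 139 and 145 TPM (0.06 and 0.12), with the first value at -0.05 under median-of-ratios or upper-quartile scaling and the pair at -0.68 and -0.58 once the trend of all genes in transcript length and GC content was subtracted. It was the most abundant of the 5 checkpoint genes in every library. In the DMSO library CDC20, the target of the checkpoint, was at 3.60 times the BUB3 level, and after compounds 1 and 2 at 0.72 and 0.95 times. These are ratios on the deposited scale. With the trend subtracted CDC20 was at -1.76 and -1.31, a smaller gap to BUB3.

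Centromere and kinetochore. Of the 15 genes, 13 were past 2-fold lower after compound 1 and 7 after compound 2, and the medians were -1.50 and -0.97. CENPA, the histone H3 variant that marks the centromere, was at 41.8, 8.68 and 13.0 TPM in the DMSO, compound 1 and compound 2 libraries (-2.14 and -1.61). CENPC, which binds CENP-A nucleosomes and carries the outer kinetochore (ENSG00000145241, chromosome 4), was at 3.72, 5.26 and 5.24 TPM (0.41 and 0.40, but -0.48 and -0.42 after removing the trend). The CENPA level was 11.2 times that of CENPC in the DMSO library, 1.65 times after compound 1 and 2.48 times after compound 2. These are ratios on the deposited scale. With the trend removed CENPA was at -1.92 and -1.39, a smaller gap to CENPC. Of the CENPC transcript 14.5% of 31-base stretches occur elsewhere, most of them in the pseudogene CENPCP1.

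The constitutive centromere network, which stays at centromeres through the cell cycle, had its lowest ratio in CENPM, at 46.0, 6.08 and 9.11 TPM (-2.73 and -2.22). CENPW, the histone-fold partner of CENP-T, was at 39.96, 11.85 and 22.25 TPM (-1.67 and -0.82), and CENPU at 30.0, 9.04 and 14.1 TPM (-1.63 and -1.04). CENPN, a reader of CENP-A nucleosomes, was the most abundant of the 15 genes, at 91.9, 31.8 and 42.5 TPM (-1.50 and -1.10). CMC2, which overlaps CENPN on the opposite strand, was at 92.4, 40.9 and 51.9 TPM. Without a stated strand of counting, reads from the stretch where they overlap cannot be told apart. The part of such reads in the CENPN value was not tested. As ratios of TPM + 1, the partners CENPH, CENPI and CENPK passed 2-fold after compound 1 and not after compound 2. As a plain ratio of levels, CENPK after compound 2 was at 49.6% of its DMSO level, just past 2-fold. CENPH was at 34.1, 15.8 and 17.7 TPM (-1.06 and -0.91), CENPI at 17.7, 6.62 and 11.0 TPM (-1.30 and -0.64) and CENPK at 30.8, 11.5 and 15.3 TPM (-1.35 and -0.97).

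The 4 subunits of the NDC80 complex, which binds microtubules end-on, lay close together in the DMSO library, between 20.3 and 28.9 TPM. NDC80 was at 20.3, 5.68 and 7.94 TPM in the DMSO, compound 1 and compound 2 libraries (-1.67 and -1.25), and its partner NUF2 at 28.9, 11.2 and 14.5 TPM (-1.29 and -0.95). SPC24, of the end of the complex that faces the centromere, was at 22.1, 3.70 and 5.92 TPM (-2.30 and -1.74), and SPC25 at 26.5, 5.09 and 9.59 TPM (-2.18 and -1.38). On the deposited scale SPC24 and SPC25 therefore had lower ratios than the microtubule-binding pair after both compounds. With the length and GC trend subtracted, SPC24 was at -1.95 and -1.46 and SPC25 at -2.25 and -1.45. NDC80 was then at -1.85 and -1.44 and NUF2 at -1.59 and -1.21, so after compound 2 NDC80 was nearly level with SPC24 and SPC25. Of the 31-base stretches of SPC24 and SPC25, 11.6% and 16.4% occur in other genes. The last members are long proteins of the kinetochore's outer corona. CENPF was at 18.3, 6.67 and 10.2 TPM (-1.33 and -0.78). CENPE, the kinesin that brings chromosomes to the spindle equator, was at 3.95, 2.43 and 4.98 TPM (-0.53 and 0.27), lower after compound 1 and higher after compound 2, neither past 2-fold. With the length and GC trend subtracted it was lower after both (-1.59 and -0.74).

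Anaphase and mitotic exit. All 4 genes were at least 2-fold lower after both compounds (medians -2.07 and -1.62), and UBE2C and CDC20 were the most abundant of the 40 mRNAs in the DMSO library. UBE2C, the ubiquitin-conjugating enzyme of APC/C, was at 497, 106 and 158 TPM in the DMSO, compound 1 and compound 2 libraries (-2.22 and -1.64). CDC20, the APC/C activator, was at 479, 100.1 and 137 TPM (-2.25 and -1.80), with 23.6% of its 31-base stretches shared with the pseudogene CDC20P1. PTTG1, which encodes securin, the inhibitor of separase, was at 228, 68.5 and 74.8 TPM (-1.72 and -1.60), and ESPL1, separase itself, at 13.4, 2.80 and 4.24 TPM (-1.92 and -1.46). PTTG1 differed little between the compound libraries (0.12), and its level was 17.0, 24.5 and 17.6 times that of ESPL1 in the 3 libraries. Other genes hold 15.3% of the 31-base stretches of PTTG1, with its pseudogene PTTG3P the closest.

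Spindle, chromosomes and cytokinesis. All 6 genes were at least 2-fold lower after both compounds (medians -2.09 and -1.44). TPX2, which activates AURKA on the spindle, was at 270.3, 79.7 and 106 TPM in the DMSO, compound 1 and compound 2 libraries (-1.75 and -1.34). TOP2A, the topoisomerase that untangles chromosomes and the target of etoposide, was at 180.4, 46.0 and 67.4 TPM (-1.95 and -1.41). MKI67, the Ki-67 proliferation marker that coats mitotic chromosomes, was at 41.8, 8.15 and 14.5 TPM (-2.23 and -1.47). In all 3 the DMSO library was highest and the compound 1 library lowest. ANLN, which encodes anillin of the contractile ring, was at 156, 43.3 and 60.5 TPM (-1.83 and -1.35), PRC1, the crosslinker of midzone microtubules, at 128, 23.9 and 34.9 TPM (-2.37 and -1.84), and NUSAP1, a microtubule-bundling protein, at 89.0, 15.9 and 23.9 TPM (-2.41 and -1.86). PRC1 and NUSAP1 share 64.5% and 70.5% of their 31-base stretches with other genes, almost all with an overlapping gene model on the same strand. Those models were listed at 1.98, 0.631 and 0.546 TPM for PRC1 and at 0.139, 0.141 and 0 TPM for NUSAP1.

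**Figure D2:**
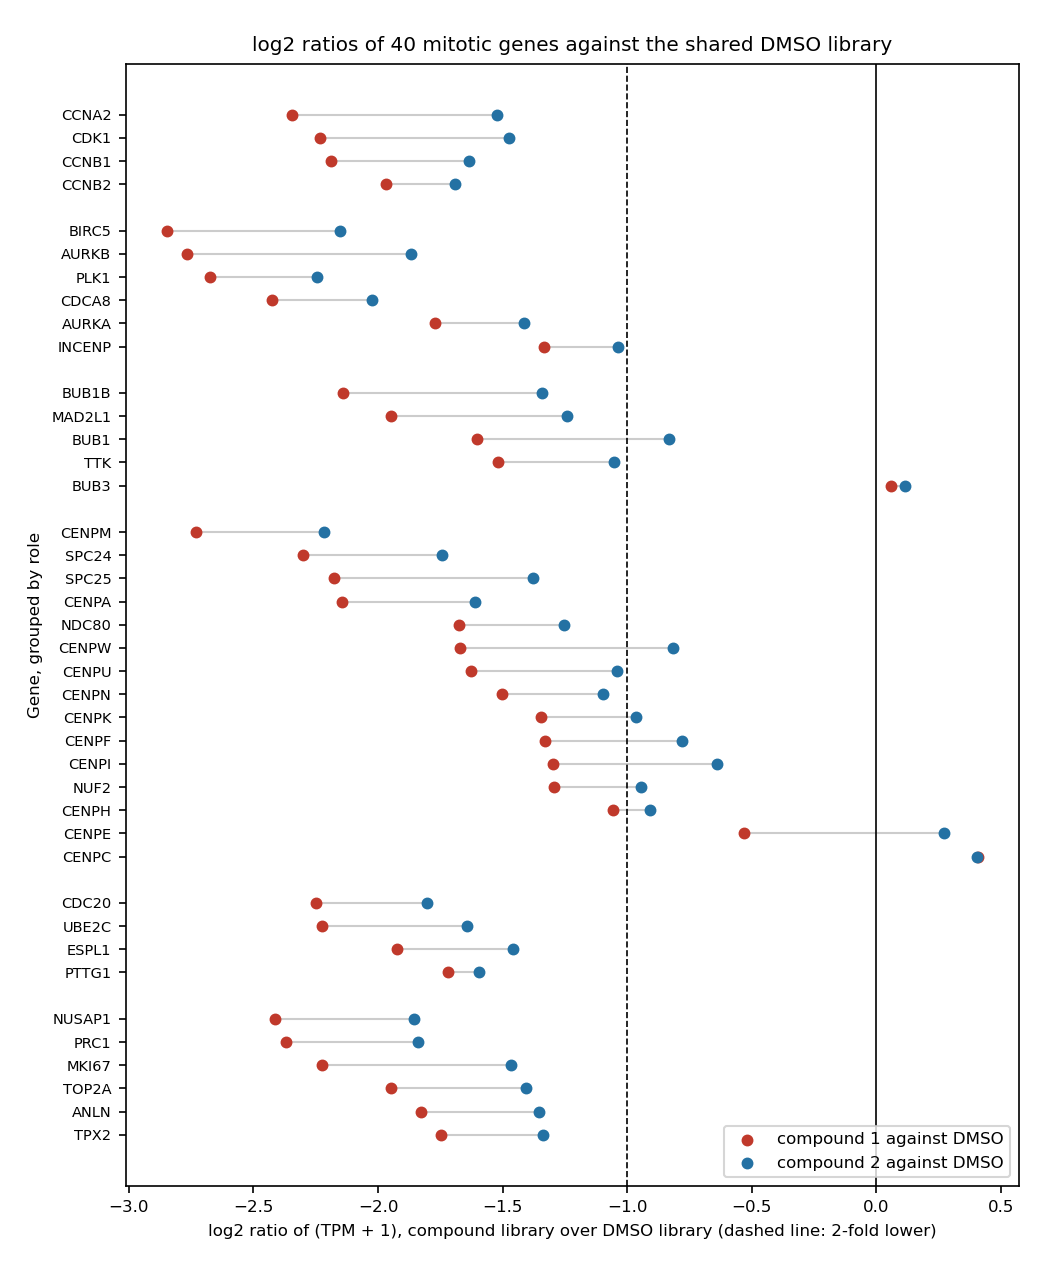
log2 ratio of TPM + 1 against the shared DMSO library for each of the 40 genes after compound 1 and compound 2, with a dashed line at 2-fold lower. On the deposited scale only BUB3 and CENPC lie above 0 after compound 1, joined by CENPE after compound 2. All 3 lie below 0 when the trend in length and GC content is removed, and so does BUB3 after compound 1 under the other scalings.

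The compounds were then compared directly at the same dose and time. The DMSO library entered this comparison only through the filter on the mean level over the libraries. Most mitotic mRNAs were higher after compound 2 than after compound 1, and none by 2-fold as a ratio of TPM + 1. As a plain ratio of levels, CENPE after compound 2 was 2.05 times its level after compound 1, and the other 39 stayed under 2 times. Of 40 genes 39 had a log2 ratio of compound 2 over compound 1 above 0, against 48.6% of all genes, and the exception, CENPC, was level (5.24 and 5.26 TPM). The median was 0.53, with quartiles of 0.41 and 0.70, against -0.01 for all genes, whose quartiles were -0.17 and 0.15. On that scale 0 of 40 were 2-fold higher or lower, against 0.293% and 0.552% of all genes. At a threshold of 1.5-fold 13 of 40 were higher and none lower, against 2.59% and 3.14%. The largest log2 ratios of TPM + 1 were those of AURKB (0.90), CENPW (0.86), CCNA2 (0.82), BUB1B (0.80), CENPE (0.80) and SPC25 (0.80). At the other end stood CENPC, BUB3 (0.06), PTTG1 (0.12), CENPH (0.15) and CCNB2 (0.28). Only 1 pair of libraries was compared, so no interval for the difference between the compounds can be given, and the labels name no structural change between them.

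**Figure D3:**
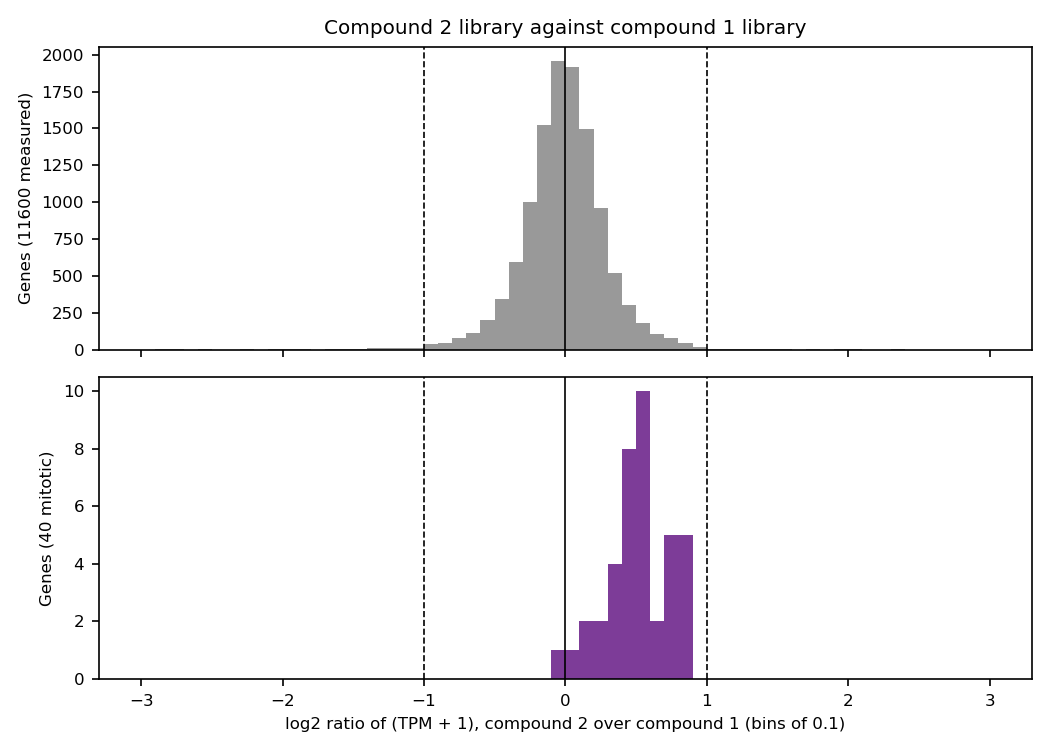
Histograms of the log2 ratio of TPM + 1 of the compound 2 over the compound 1 library, for all 11600 measured genes above and the 40 mitotic genes below, in bins of 0.1, with dashed lines at 2-fold. All genes centre near 0 (median -0.01), and the mitotic genes near 0.53.

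Across all genes, ratios against DMSO moved with transcript length and GC content, and the values of the longest members have to be read beside that. Over 11542 genes, which are not independent and share the same libraries, Spearman's rho of the compound 1 ratio was 0.30 with length and -0.39 with GC content, and that of the compound 2 ratio 0.32 and -0.39. Over the 40 genes it was 0.25 and -0.55 for compound 1, and 0.30 and -0.67 for compound 2, so members of low GC content had the smaller differences. Their longest transcripts ran from 750 bases (CENPW) to 12678 bases (MKI67), with a median of 2492, against 3665 for all genes. BUB3, CENPC and CENPE are at 7828, 6940 and 8612 bases among the longest. With the trend removed, 38 of the 40 were past 2-fold lower after compound 1 (median -1.93) and 32 after compound 2 (median -1.45). The group's difference was thus as large without the trend, and CENPE joined the genes past 2-fold after compound 1 (-1.59). After compound 2 INCENP (-0.90) and CENPN (-0.91) dropped short of 2-fold, and BUB1 (-1.15), CENPF (-1.56), CENPK (-1.20) and NUF2 (-1.21) came past it. MKI67 (-2.80 and -2.03) and CENPF (-2.17 and -1.56) were then lower than on the deposited scale. CENPM moved the other way, from -2.73 and -2.22 on the deposited scale to -2.14 and -1.64. The part of RNA quality or library preparation in this trend was not tested.

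**Figure D4:**
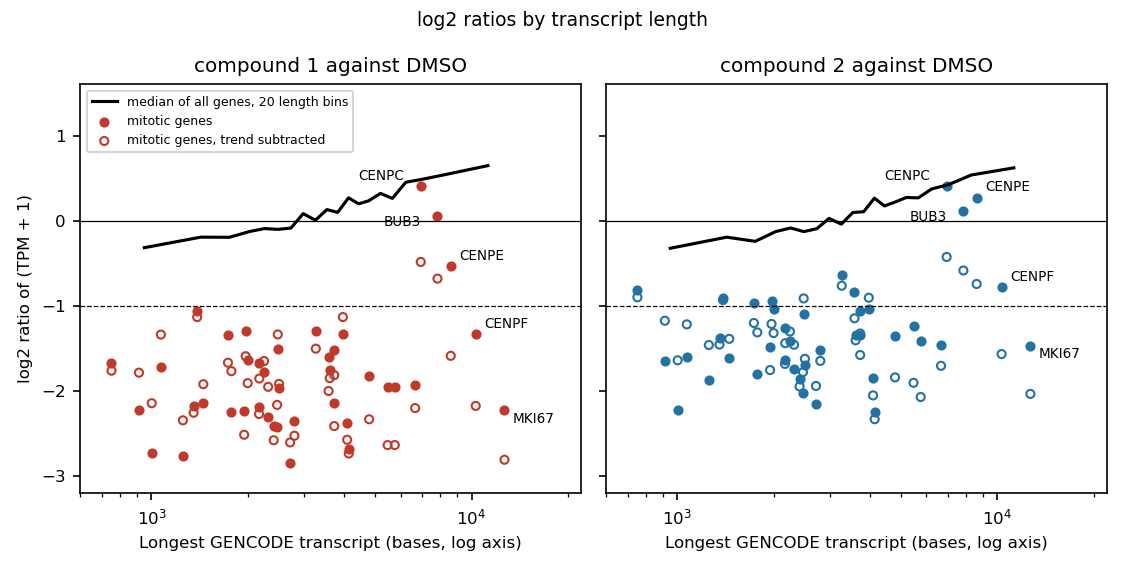
log2 ratio of TPM + 1 against DMSO by length of the longest GENCODE transcript (log axis), for compound 1 on the left and compound 2 on the right. The black line is the median of all genes in 20 length bins, filled points are the 40 mitotic genes and open points the same genes after that trend and the one in GC content were removed. As filled points BUB3 and CENPC lie above 0 in both panels. CENPE lies below 0 after compound 1 (-0.53) and above 0 after compound 2 (0.27). As open points BUB3, CENPC and CENPE all lie below 0.

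Other genes of the same machinery were less uniform. Condensin, the ring complex that compacts mitotic chromosomes, had 6 of 8 genes past 2-fold lower after compound 1 and 5 after compound 2 (medians -1.95 and -1.37). Its lowest were the subunit genes NCAPH, at 94.6, 17.3 and 24.0 TPM (-2.38 and -1.93), and NCAPG, at 58.5, 10.9 and 19.3 TPM (-2.32 and -1.55). The ATPases SMC2 (-0.32 and -0.07) and SMC4 (-0.51 and -0.18) did not pass 2-fold. Cohesin, which holds sister chromatids together, and its regulators had 3 of 15 lower and 3 higher after compound 1, 2 lower and 2 higher after compound 2, and medians of 0.42 and 0.41 that became 0.01 and -0.09 when the trend was removed. Of all genes, 8.09% were lower and 14.7% higher after compound 1 and 6.56% lower and 12.6% higher after compound 2, so 2 or 3 higher genes of 15 is near that background and is no result about cohesin. CDCA5, which encodes sororin, was at 96.3, 13.1 and 23.4 TPM (-2.79 and -2.00). The loader gene NIPBL was at 4.68, 17.2 and 14.5 TPM (1.68 and 1.45) and the subunit gene STAG2 at 48.7, 136 and 140.4 TPM (1.47 and 1.51), and their longest transcripts of 10435 and 6045 bases lie where all genes had higher ratios. STAG1 was at 1.19 and 0.94.

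The APC/C list, which holds its core subunits, its second activator FZR1 and its enzyme UBE2S, had 2 of 16 genes lower and 1 higher after compound 1 and 1 lower and 1 higher after compound 2 (medians -0.38 and -0.20). Against those shares of all genes the lower counts were near the background and the higher counts below it. Its largest ratios were those of the subunit genes CDC27, at 40.8, 95.2 and 105 TPM (1.20 and 1.35), and ANAPC15, at 88.64, 34.32 and 40.02 TPM (-1.34 and -1.13). Other kinetochore and centromere genes had 13 of 26 lower after compound 1 and 9 after compound 2 and none higher (medians -1.0 and -0.60). ZWINT, a partner of the outer kinetochore, was at 136, 22.5 and 39.5 TPM (-2.55 and -1.76), and CENPX, a histone-fold protein, at 81.9, 15.8 and 23.9 TPM (-2.31 and -1.74). SKA1, named after its value was seen, was at 4.81 TPM after compound 1 and 11.6 TPM after compound 2, and was the only gene of these lists past 2-fold higher between them as a ratio of TPM + 1 (1.12). ESCO2, a cohesin acetyltransferase gene named for the same reason, was at 3.68 and 7.98 TPM (0.94), 2.17 times as a plain ratio.

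Among other mitotic kinases, phosphatases and regulators of entry or exit, 11 of 22 were lower and 2 higher after compound 1, and 7 lower and 2 higher after compound 2 (medians -0.90 and -0.73). Of all genes, 8.09% were lower and 14.7% higher after compound 1, and 6.56% and 12.6% after compound 2. The higher counts were thus below the background and are no result about this list. CCNF, which encodes cyclin F, was at 38.6, 4.38 and 7.96 TPM (-2.88 and -2.14), and PKMYT1, a kinase that inhibits CDK1, at 58.7, 10.4 and 19.4 TPM (-2.39 and -1.55). Higher past 2-fold after both was the kinase gene NEK7, at 13.7, 49.9 and 49.1 TPM (1.80 and 1.77). The phosphatase gene CDC14A, at 1.93, 3.74 and 6.19 TPM (0.69 and 1.29), was past 2-fold higher after compound 2 only. Its DMSO level was close to the 1 TPM added before taking ratios. CDC14B, also a phosphatase gene, was past 2-fold higher after compound 1 only, at 11.4, 24.5 and 16.7 TPM (1.04 and 0.51). In the list of spindle poles, cytokinesis and midzone 10 of 18 were lower after compound 1 and 5 after compound 2, with none higher (medians -1.05 and -0.70, and -1.55 and -1.18 with the trend subtracted). FAM83D, a spindle protein, was at 93.3, 10.2 and 19.0 TPM (-3.07 and -2.24), and TACC3, which stabilises spindle microtubules, at 181, 28.1 and 40.9 TPM (-2.65 and -2.12).

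**Figure D5:**
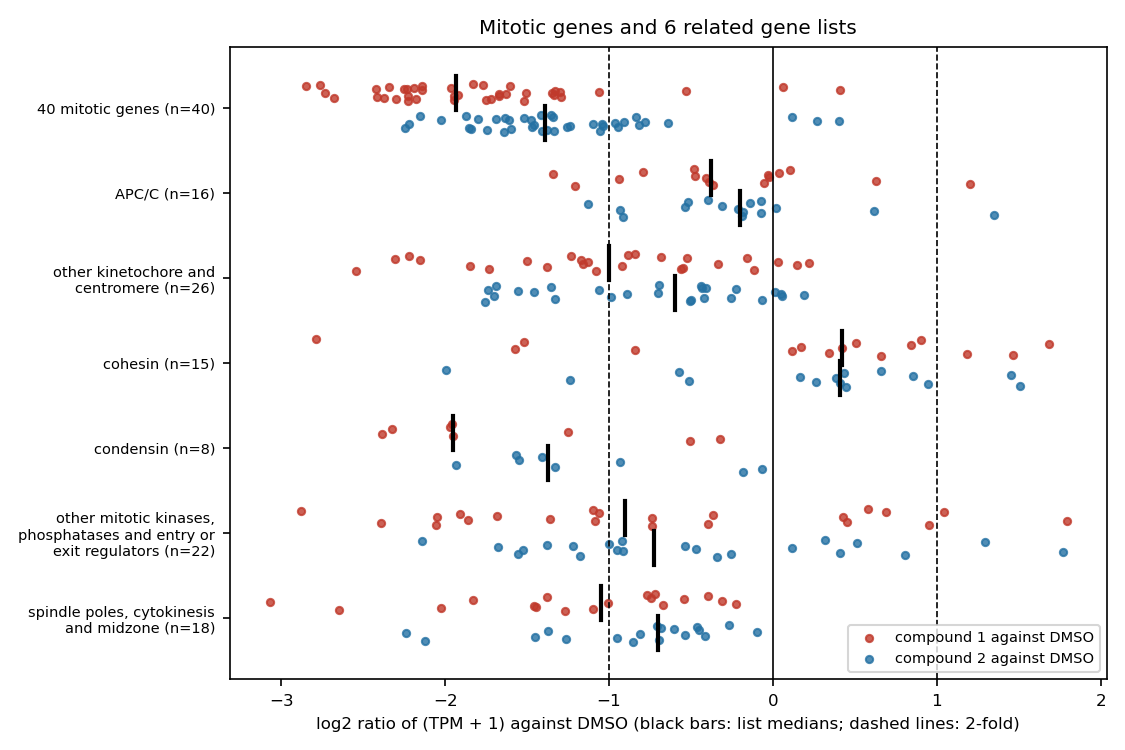
log2 ratio of TPM + 1 against DMSO for the 40 mitotic genes and 6 related lists, 1 point a gene, with black bars at the list medians and dashed lines at 2-fold. The medians of condensin (-1.95 and -1.37) lie beside those of the 40 genes (-1.94 and -1.39), and those of APC/C (-0.38 and -0.20) and cohesin (0.42 and 0.41, or 0.01 and -0.09 once the trend in length and GC content is removed) nearer to 0.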

How the data were processed

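mRNA of HCC827 cells was sequenced in 3 libraries, 1 a group. Total RNA extracted with Trizol went into Illumina TruSeq RNA libraries, per the labels' protocols. Bowtie 0.12.2 and the builds GRCh38.p12 and mm8 are listed, with no role, per the submitters' processing notes. The annotation used and how reads were counted are not given in the sources used here. A single table was deposited by the authors under headers that name FPKM. Each column of the deposited table sums to 1000000, so the values were treated as TPM, in which a gain by abundant genes lowers all others.

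log2 ratios of TPM + 1 were computed in Python 3.11.15 with pandas 2.3.3 for 11600 genes whose mean reached 1 TPM and called at 2-fold, with no test. The computation was tested on simulated data. GENCODE 29 (GRCh38) gave coordinates and the longest transcript for 20089 of the 20332 genes. The trend was removed by subtracting medians of 20 bins of length and then of GC content. The part of a transcript shared with other genes was measured on its 31-base stretches. All 40 members are named. Of each other list the text names the pair of genes with the largest mean ratio against DMSO and any gene 2-fold higher, and SMC2, SMC4, SKA1 and ESCO2 were added after their values were seen. The members, lists, motifs and 8 alternative settings were chosen with earlier results of these data known.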

Additional observations from a re-analysis of the deposited data

Results flagged for a closer look

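CENPE, the kinetochore kinesin, was flagged because it lay on opposite sides of the DMSO library after the 2 compounds, with log2 ratios of -0.53 after compound 1 and 0.27 after compound 2. Its levels were 3.95 TPM with DMSO, 2.43 TPM after compound 1 and 4.98 TPM after compound 2. The difference was not tested, since each group had 1 library, and no other of the 40 genes had ratios of opposite sign. With the length and GC trend subtracted both values were below 0 (-1.59 and -0.74).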

How the results depend on the processing

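Under 8 alternative settings, 67 of 69 values of the counts and medians of the 40 genes stayed within 1.5 times (counts) or 0.25 (median log2 ratio) of those reported, and none changed direction. The exceptions were in compound 2 against compound 1, where 13 genes were higher at a threshold of 1.5-fold and 1 (CENPE, 1.01) at a pseudocount of 0.1, against 0. The count of lower genes ran from 34 (pseudocount 5) to 38 (length and GC trend subtracted) after compound 1, and from 25 (pseudocount 5) to 37 (1.5-fold) after compound 2. For single genes, 12 of 834 values came past 2-fold, 10 dropped below it and 9 changed sign, of which 5 moved by more than 0.25. Those 5 were BUB3 and CENPC in both comparisons with DMSO and CENPE after compound 2, all with the trend subtracted. The other 4 were BUB3 after compound 1 under both other scalings and CENPC between the compounds. In the other lists 17 of 270 values moved, among them the lower count of the other kinetochore list after compound 1 at a pseudocount of 5 (8) and that of the spindle pole list after compound 2 with the trend subtracted (12). Median-of-ratios scaling raised the share of all genes at least 2-fold lower to 9.83% after compound 1 and 7.79% after compound 2, with 12.5% and 10.8% higher. Trend subtraction gave 9.03% and 7.49% lower, with 8.43% and 6.85% higher. No paired analysis was possible because each group has 1 library. The values keep no counts, so how depth limits single genes could not be given.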
